A study of Mus musculus with 4 samples.

Results

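Open chromatin was examined at 9 genes that encode ETS family transcription factors, *Erg*, *Fli1*, *Ets1*, *Ets2*, *Elk3*, *Etv6*, *Elf1*, *Etv2* and *Etv1*, of the 21755 protein-coding genes considered in the mouse annotation (GENCODE M21 on mm10). The members were taken by name, and the peaks described are those at their annotated transcript starts, in their gene records and within 100 kb on each side. ETS proteins share a winged helix domain that binds DNA at a GGAA core. *Erg*, *Fli1* and *Ets1* are known for maintaining the identity and junctions of endothelial cells (ECs), and *Etv2* for starting the vascular programme in the embryo, after which it is silenced. The other members act in many cell types, *Ets2* downstream of MAP kinases, *Elk3* as a partner of serum response factor, *Etv6* as a repressor, *Elf1* at the promoters of widely used genes and *Etv1* in atrial and conduction cardiomyocytes.

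Chromatin was profiled by ATAC-Seq, in which the Tn5 transposase tags accessible DNA, in nuclei sorted from whole hearts of male NuTRAP/Cdh5-Cre mice on a C57BL/6 background, aged 8 to 12 weeks. The GFP+ (EC) and GFP- (non-EC) groups were sorted from hearts of this same genotype and held 2 libraries each, from 100 to 50000 diploid nuclei. Cre was driven by the promoter of *Cdh5* (VE-cadherin), so GFP marked cells that had used this promoter at some time, with their descendants, and GFP- nuclei pooled all other heart cells. The authors called 1 peak list per group from both libraries together, so no value below has a replicate check and no p-value was computed. The GFP- list held 78912 peaks and the GFP+ list 65008. Each peak was ranked from 0 to 100 by its deposited area within its own list, where 100 is the largest area, and was counted as shared if it overlapped a peak of the other list by at least 1 bp. Fewer nuclei with a site open and less opening per nucleus cannot be told apart in such lists.

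The sorted groups were compared with marker genes at their annotated starts. Of 8 endothelial markers, 6 had a start peak in the GFP- list and 8 in the GFP+ list, with a median highest rank of 33.1 and 76.1. The ranks ran from 0 (no peak) to 81.1 in GFP- and from 54.1 to 98.7 in GFP+, and 7 of the 8 were higher in GFP+. All 7 cardiomyocyte markers had a start peak in both lists, with medians of 99.7 and 94.3. Of 7 fibroblast markers, 6 had a start peak in GFP- and 2 in GFP+, and of 7 pericyte and smooth muscle markers 7 and 3. Of 10 leukocyte markers, only *Cd68* had a start peak, at rank 31.8 in GFP- and 16.8 in GFP+, and *Ptprc*, which encodes the pan-leukocyte protein CD45, had none in either list. The part that ECs left in the GFP- list or cardiomyocyte chromatin in the GFP+ list have in the values below was not tested.

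Selected sequences from these loci are shown first, in GRCm38 (mm10) coordinates and on the strand of the gene. The first is the 250 bases upstream of the *Erg* start that was open in GFP+ only, as listed in RefSeq promoter sequences of GRCm38, which matched 7 of the 9 genes. The others are windows of 200 bases around the summits of peaks found in a single list. They are the highest-ranked GFP+ only peak inside *Erg*, the 3 GFP+ only peaks with an ETS word (in one of them, at the second start of *Elk3*, the window lies upstream of the start itself), the highest-ranked GFP+ only peak inside *Ets1*, and for contrast a GFP- only peak inside *Ets1* with an AP-1 word. Capitals mark matches, on either strand, to 5 words. The ETS word was CAGGAAGT, which holds the GGAA core. The composite word of FOX and ETS factors (FOX:ETS) was AACAGGAA, which can overlap the ETS word, as it does in the *Elk3* flank. For SOX factors the letters searched were ACAATGG, for GATA factors they were AGATAAG, and for the AP-1 dimers of FOS and JUN they were TGANTCA.
Erg upstream of start 4, chr16:95459349-95459598, minus strand, GFP+ only, GATA: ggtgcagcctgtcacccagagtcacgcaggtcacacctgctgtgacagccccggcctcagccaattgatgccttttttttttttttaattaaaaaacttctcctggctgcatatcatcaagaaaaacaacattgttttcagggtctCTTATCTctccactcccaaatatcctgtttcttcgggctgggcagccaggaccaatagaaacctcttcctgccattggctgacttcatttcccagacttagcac
Erg intron, chr16:95463944-95464143, minus strand, GFP+ only, SOX and GATA: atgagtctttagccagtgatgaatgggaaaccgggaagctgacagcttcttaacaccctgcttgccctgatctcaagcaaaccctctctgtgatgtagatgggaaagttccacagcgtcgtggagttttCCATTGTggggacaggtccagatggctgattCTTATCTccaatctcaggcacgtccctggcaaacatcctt
Fli1 intron, chr9:32529738-32529937, minus strand, GFP+ only, ETS: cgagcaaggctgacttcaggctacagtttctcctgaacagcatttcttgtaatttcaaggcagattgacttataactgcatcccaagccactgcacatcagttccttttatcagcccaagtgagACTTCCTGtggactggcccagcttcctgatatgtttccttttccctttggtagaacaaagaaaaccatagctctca
Elk3 intron, summit of the peak reaching the second start, chr10:93285651-93285850, minus strand, GFP+ only, ETS: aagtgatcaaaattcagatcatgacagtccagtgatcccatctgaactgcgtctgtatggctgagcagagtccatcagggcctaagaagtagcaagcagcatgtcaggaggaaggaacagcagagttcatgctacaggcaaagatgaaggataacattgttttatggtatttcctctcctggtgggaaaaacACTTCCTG
Elk3 upstream flank, chr10:93391422-93391621, minus strand, GFP+ only, ETS and FOX:ETS: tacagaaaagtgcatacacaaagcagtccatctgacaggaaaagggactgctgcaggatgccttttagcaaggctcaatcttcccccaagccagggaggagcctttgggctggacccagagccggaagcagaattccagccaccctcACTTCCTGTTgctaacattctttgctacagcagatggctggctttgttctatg
Ets1 intron, chr9:32673998-32674197, plus strand, GFP+ only, SOX at 2 places: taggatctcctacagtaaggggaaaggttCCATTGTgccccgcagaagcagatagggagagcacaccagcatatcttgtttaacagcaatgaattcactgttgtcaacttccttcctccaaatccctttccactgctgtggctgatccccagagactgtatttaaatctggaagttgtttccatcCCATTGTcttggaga
Ets1 intron, chr9:32714636-32714835, plus strand, GFP- only, AP-1: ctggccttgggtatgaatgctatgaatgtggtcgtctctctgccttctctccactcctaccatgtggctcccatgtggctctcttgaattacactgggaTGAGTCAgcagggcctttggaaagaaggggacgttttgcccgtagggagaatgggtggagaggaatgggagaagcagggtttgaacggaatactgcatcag

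The first comparison asked which annotated starts of each gene lay in open chromatin in each population. Transcript starts of a gene whose windows of +/- 250 bp overlap were taken as 1 start, which gave 25 starts for the 9 genes. A GFP+ peak lay at 12 of them and a GFP- peak at 9, and among 52275 starts of all protein-coding genes the shares were 32.4% and 34.3%. At 3 starts, in *Erg*, *Ets1* and *Elk3*, there was a peak in the GFP+ list only, compared with 1.12% of all starts. Within 250 bp no start of a member had a peak in the GFP- list only, compared with 2.97% of all starts. With windows of +/- 1000 bp there was 1 such start, in *Etv6*, and where a peak had to hold the start base there was 1 in *Fli1*. By gene, *Erg* was the only member with start peaks in 1 list only, a pattern of 0.915% of protein-coding genes for GFP+ and 2.95% for GFP-. Of the 8 members with a start peak, 3 had a higher top rank in GFP+, compared with 28.6% of all genes with a start peak. These 3 were *Erg*, *Fli1* and *Ets1*, and by area per bp *Etv6* (91.6 in GFP-, 93.0 in GFP+) took the place of *Ets1*.

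*Erg* (chr16:95359169-95586593, minus strand) has 8 annotated transcripts that begin at 4 starts. The first 3 starts, of which the outermost is the annotated 5′ end, had no peak in either list. The fourth, where 4 coding transcripts begin 127 kb inside the record, had a peak of 490 bp at rank 57.5 in the GFP+ list (chr16:95459289-95459778). This peak was number 27627 of 65008 by area, and it covered all 250 bases of the upstream sequence shown above, of which GFP- peaks covered 0. A smaller GFP+ peak of 233 bp at rank 21.9 (chr16:95458952-95459184) lay just downstream. The nearest GFP- peak was 9247 bp from the smaller of these peaks and 9584 bp from the larger. The internal start of *Erg* was therefore listed as open in GFP+ only, and the starts upstream of it in neither list.

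*Fli1* (chr9:32422204-32542861, minus strand), the closest relative of *Erg*, has 2 annotated starts, and both had peaks in both lists. In GFP+ a single peak of 2745 bp at rank 95.1 (chr9:32539979-32542723), number 3183 by area, reached both start windows. In GFP- the same stretch held a peak of 1957 bp at rank 88.1 (chr9:32540063-32542019), number 9409 by area, and a separate peak of 700 bp at rank 16.5 at the upstream start. The highest rank of *Fli1* was thus 7.03 points higher in GFP+. At the upstream start alone the ranks were 16.5 in GFP- and 95.1 in GFP+, but the GFP+ value belongs to the same single peak. That peak ended short of the upstream start base, with its summit 1.1 kb from it. Where a peak had to hold the start base, the upstream start had a peak in GFP- only. A further GFP+ peak at rank 13.3 was counted as GFP+ only although it lay 12 bp from a GFP- peak.

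*Ets1* (chr9:32636221-32757820, plus strand) lies head to head with *Fli1*. Its main start, with 4 coding transcripts, had a peak of 1887 bp at rank 96.0 in GFP- and of 2341 bp at rank 96.4 in GFP+, a difference of 0.411 points. These peaks overlapped by 1329 bp, with the GFP+ peak reaching further upstream. Downstream of it, a separate GFP+ peak at rank 37.5 (chr9:32696735-32697104) lay within the GFP- peak. The first start of *Ets1*, which opens its gene record, serves 2 transcripts that are not annotated as coding, and it had a peak in GFP+ only, 298 bp long at rank 28.1 (chr9:32636008-32636305), 9883 bp from the nearest GFP- peak. By area the main start thus had nearly equal ranks, but by area per bp it had rank 89.7 in GFP- and 79.3 in GFP+, which turns the direction.

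*Elk3* (chr10:93247414-93311135, minus strand) showed opposite directions at its 2 starts. The main start had a GFP- peak of 1473 bp at rank 83.1 and, in the same stretch, 2 GFP+ peaks of 1164 bp at rank 74.7 and 672 bp at rank 44.9. The difference in highest rank, GFP+ minus GFP-, was -8.34 points. With the areas of the peaks at a start summed before ranking, a setting chosen after seeing the data, the ranks were 83.1 in GFP- and 81.0 in GFP+, and by the summit −log10 p they were 69.9 and 68.0. By area per bp they were 51.9 and 37.4, so the direction held and the size of the gap depended on the ranking. The second start, where 1 coding transcript begins inside the gene, had a peak in GFP+ only, 876 bp long at rank 21.6 (chr10:93284958-93285833). The nearest GFP- peak was 3619 bp away. The window around its summit, shown above, lay upstream of the start, beyond 250 bp from it, and ended in an ETS word.

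The starts of the 4 remaining genes with start peaks were alike in both lists or ranked lower in GFP+. *Elf1* (chr14:79481194-79582494) had the highest ranks of all members, 99.2 in GFP- and 99.1 in GFP+ (number 653 and 557 by area), at a peak that also reached a start of the neighbouring gene *Wbp4*. *Ets2* (chr16:95702075-95721051) had ranks of 98.3 and 97.6 at 1 of its 4 starts. *Etv6* (chr6:134035700-134270158) had ranks of 98.1 and 97.6 at 1 of its 3 starts. None of these 3 genes had a peak within 250 bp of another start in either list. Within 1000 bp, peaks of both lists lay at 3 starts of *Ets2*, and *Etv6* had 2 starts with a GFP- peak and 1 with a GFP+ peak.

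*Etv1* (chr12:38779380-38870484), a member of the PEA3 group, had its start peaks at 2 neighbouring starts of 5. The GFP- peak was 2784 bp long at rank 97.8 and number 1771 by area. The GFP+ peak was 2087 bp long at rank 93.0 and number 4549 by area, a difference of -4.75 points. A further GFP- only peak of 359 bp at rank 29.8 lay at the second of these starts, 517 bp from the GFP+ peak. *Etv2* (chr7:30633616-30635852), the embryonic regulator, had no peak at its start and none in its gene record in either list.

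**Figure D1:**
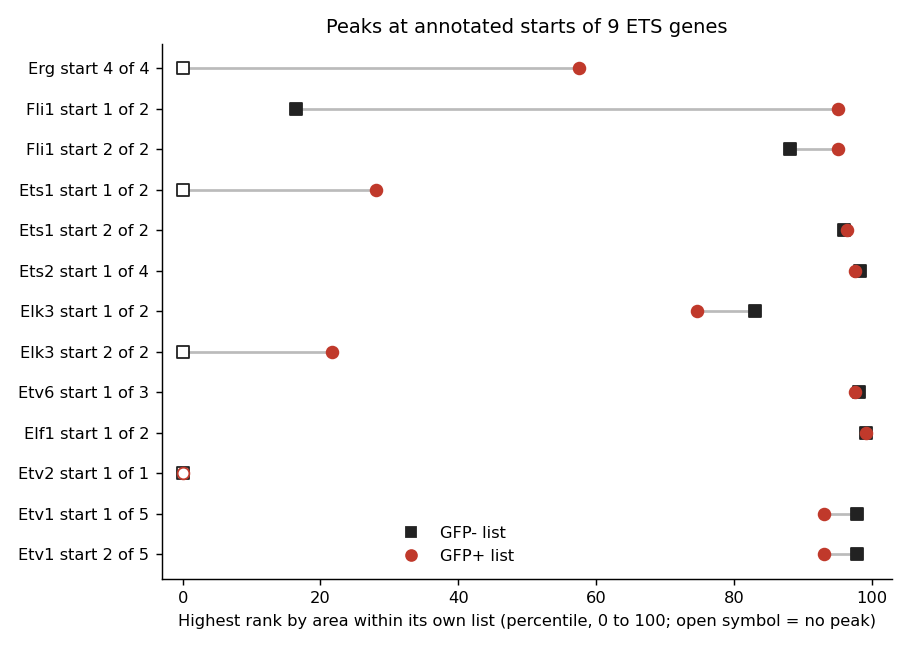
Highest rank by area (horizontal axis, percentile within the list, 0 to 100) of the peaks at each annotated start that had a peak in either list, with the start of Etv2 added; squares are the GFP- list, circles the GFP+ list and open symbols mean no peak. The starts Erg 4, Ets1 1 and Elk3 2 have a peak in GFP+ only, and Elk3 1 and Etv1 lie lower in GFP+. The starts of Fli1 lie at 16.5 and 88.1 in GFP- and share a single GFP+ peak at 95.1.

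Peaks within the gene records and flanks were then compared, to see where around each gene the lists differed. Together the 9 loci held 163 GFP- and 180 GFP+ peaks. No GFP- peak overlapped 55 of the 180 GFP+ peaks, or 30.6% (Wilson 95% interval 24.3 to 37.6%), compared with 13.4% of the whole GFP+ list and 16.5% of its peaks outside start windows. No GFP+ peak overlapped 38 of the 163 GFP- peaks, or 23.3% (17.5 to 30.4%), compared with 30.3% of the whole GFP- list and 35.8% outside start windows. The intervals cover counting error only. Because *Fli1* neighbours *Ets1* and *Erg* neighbours *Ets2*, 13 GFP- and 16 GFP+ peaks belong to the loci of both neighbours, and they are counted once in these totals and for each gene below.

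The GFP+ only peaks were unevenly spread over the genes. *Erg* had 13 among 26 GFP+ peaks (50%, 32.1 to 67.9%), *Elk3* 12 among 27 (44.4%, 27.6 to 62.7%) and *Fli1* 13 among 32 (40.6%, 25.5 to 57.7%). In the same loci the GFP- only peaks numbered 2 of 15, 2 of 17 and 5 of 25. *Etv6* had 8 GFP+ only and 9 GFP- only peaks, *Ets1* 8 and 8, and *Ets2* 2 and 2. *Elf1* had 3 GFP+ only and 8 GFP- only peaks, and *Etv1* had 0 and 3. The 4 genes *Erg*, *Fli1*, *Elk3* and *Etv2* had more GFP+ only than GFP- only peaks, compared with 15.9% of all protein-coding genes. For *Etv2* this rested on 1 peak, at a start of a neighbouring gene. Without peaks at starts of other genes the number was 3, with *Etv2* left out. With the GFP- list shortened to the length of the GFP+ list, this number was 7, and the share of all protein-coding genes was 37.9%.

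**Figure D2:**
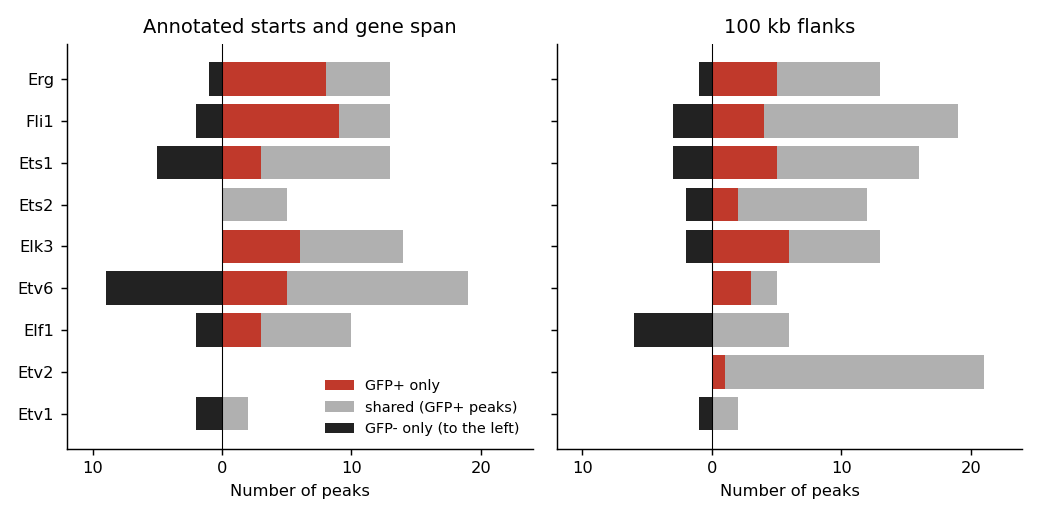
Number of peaks (horizontal axis) at the starts and in the gene span (left panel) and in the 100 kb flanks (right panel) of each gene; red bars are GFP+ only peaks, grey bars shared peaks counted in the GFP+ list, and black bars to the left GFP- only peaks. Within the gene span, Erg has 8 GFP+ only peaks, Fli1 9 and Elk3 6, against 1, 2 and 0 GFP- only peaks, while Etv6 has 9 GFP- only peaks.

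Inside *Erg*, 8 of 13 GFP+ peaks were GFP+ only, 2 of them at the internal start and 6 in introns. At least 8 GFP+ only peaks in the gene record were found in 44 protein-coding genes, or 0.202% of all, and in 0.880% of the 5000 genes of 50 kb or more. GFP+ peaks covered 8788 bp of the gene record and GFP- peaks 2289 bp, a ratio of 3.84. The highest-ranked GFP+ only peak in the record was 642 bp long at rank 64.9 (chr16:95463670-95464311), in an intron upstream of the internal start, and the nearest GFP- peak was 13965 bp away. In the flanks the highest was at rank 74.1 (chr16:95347047-95347920), beyond the 3′ end of the gene and 867 bp from a GFP- peak. The GFP- only peaks of the *Erg* locus were small, at rank 18.7 in an intron and 12.4 in the upstream flank.

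The shared peaks of *Erg* also ranked higher in GFP+, with a median difference of 6.34 points over 13 peaks, compared with -2.14 over all 56278 shared GFP+ peaks. The widest differences, picked after their values were seen, were in an intron at rank 31.1 in GFP- and 88.0 in GFP+ (chr16:95438395-95440207), in another intron at 38.1 and 82.6 (chr16:95448466-95449984), and beyond the 3′ end at 33.7 and 84.4 (chr16:95321697-95322527). All 3 lie on the 3′ side of the internal start. Upstream of the *Erg* gene record, 4 shared peaks had ranks of 9.16 to 73.9 in GFP+ and 33.1 to 70.0 in GFP-.

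Inside *Fli1*, 8 of 11 intronic GFP+ peaks were GFP+ only. The highest-ranked were at rank 69.3 (chr9:32519520-32520049) and 68.1 (chr9:32525562-32526316), and the window with the ETS word shown above belongs to another, at rank 47.3 (chr9:32529618-32529954). The distance from these 8 peaks to the 5′ end of the gene was 13.0 to 75.8 kb, whereas the 2 GFP- only intronic peaks, at rank 52.5 (chr9:32443887-32444216) and 41.9, lay at 98.8 and 108 kb. With summits in the record, *Fli1* had 8 GFP+ only peaks, as many as *Erg*. At least 8 were found in 0.202% of all protein-coding genes and in 0.88% of those of 50 kb or more. GFP+ peaks covered 9093 bp of the gene record and GFP- peaks 4398 bp, a ratio of 2.07. The widest difference at a shared peak of any member was in a *Fli1* intron (chr9:32506131-32506794), at rank 5.23 in GFP- and 78.9 in GFP+. Over the 19 shared peaks of the *Fli1* locus the median difference was 7.09 points.

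Between *Fli1* and *Ets1*, which share their upstream flanks, 1 shared peak (chr9:32618608-32619082) had rank 17 in GFP- and 74.9 in GFP+. Close to the *Fli1* start, a shared peak (chr9:32543822-32545079) had rank 21.5 and 64.5, and the highest-ranked GFP+ only peak of this flank had rank 49.6 (chr9:32543332-32543678), 458 bp from a GFP- peak. There was no GFP- only peak in the upstream flank of either gene, against 4 GFP+ only peaks in the upstream flank of each, 3 of which belong to both.

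In the introns of *Ets1*, 5 of 14 GFP- peaks were GFP- only (35.7%) and 2 of 11 GFP+ peaks were GFP+ only (18.2%). Both shares were close to those of the whole lists outside start windows, 35.8% and 16.5%. The highest-ranked GFP- only peak was 1115 bp long at rank 72.3 (chr9:32666805-32667919). The highest-ranked GFP+ only peak was 556 bp long at rank 59.2 (chr9:32673951-32674506), 618 bp from a GFP- peak, and its window above holds a SOX word at 2 places. GFP- peaks covered 14428 bp of the gene record and GFP+ peaks 10561 bp, a ratio of 0.732. Over the 21 shared peaks of the whole locus, flanks included, the median difference was 4.04 points. At the 10 shared GFP+ peaks of the starts and gene span alone, the differences ran from -58.5 to 12.8 points. By over 20 points, 6 peaks were higher and 3 lower in GFP+. The 6 higher peaks all lay in the flanks. Of the lower ones, an upstream flank peak had rank 27.6 in GFP- and 3.18 in GFP+. Another was intronic, at 76.3 and 37.1. The last, at 96.0 and 37.5, was the separate GFP+ peak that lay within the GFP- peak of the main start. The main GFP+ peak of that start had rank 96.4.

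Inside *Elk3*, 6 of 14 GFP+ peaks were GFP+ only and 0 of 8 GFP- peaks were GFP- only. At least 6 GFP+ only peaks were found in 0.446% of all protein-coding gene records and in 1.9% of those of 50 kb or more. The highest-ranked GFP+ only peak in the record was 837 bp long at rank 53.5 (chr10:93282260-93283096) and 921 bp from a GFP- peak. In the upstream flank the highest was 1090 bp long at rank 72.7 (chr10:93376214-93377303), 528 bp from a GFP- peak. The GFP+ only peak whose window shows the ETS and FOX:ETS words together had rank 33.8 and lay 15583 bp from the nearest GFP- peak. At 15 shared peaks the median difference was 5.94 points, and an intronic peak (chr10:93297718-93298600) had rank 20.9 in GFP- and 83.7 in GFP+. So the peaks around *Elk3* were mostly higher in GFP+, while its main start ranked lower there.

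**Figure D3:**
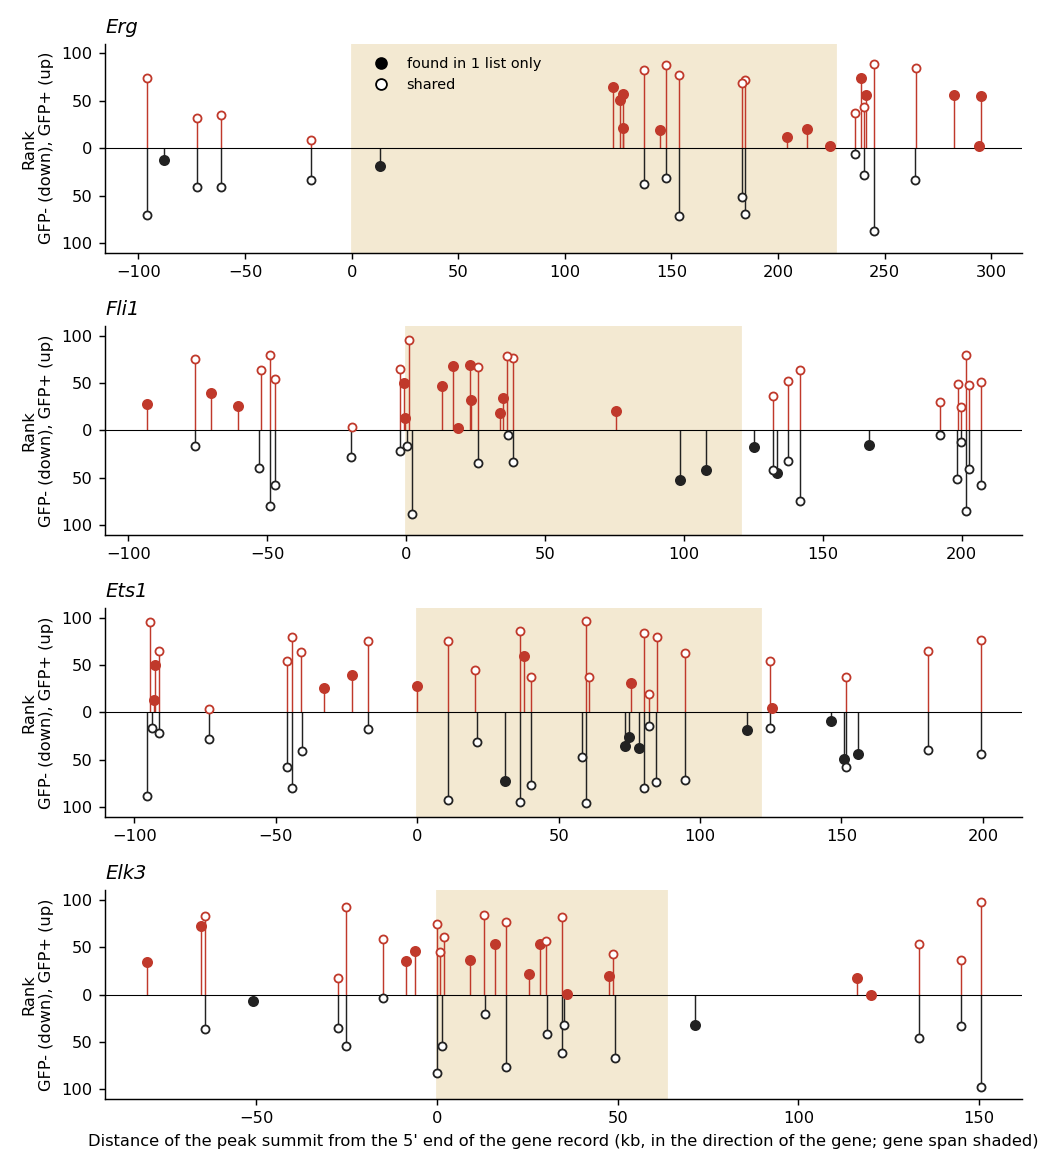
Peaks around Erg, Fli1, Ets1 and Elk3, placed by the distance of their summit from the 5′ end of the gene record (horizontal axis, kb in the direction of the gene, gene span shaded) with their rank (vertical axis, GFP+ upwards, GFP- downwards); filled points are peaks of 1 list only and open points shared peaks. In Erg the GFP+ only peaks begin about 123 kb inside the record, and in Fli1 they fill the 5′ part of the gene.

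*Etv6*, *Elf1* and *Ets2* had few differences at their starts but some in their introns and flanks. In *Etv6* introns 9 of 22 GFP- peaks were GFP- only, the highest at rank 68.9 (chr6:134089741-134090595), and 5 of 18 GFP+ peaks were GFP+ only, the highest at rank 41.3 (chr6:134105703-134106335). In these introns the GFP- only share was 40.9% (23.3 to 61.3%), compared with 35.8% of the GFP- list outside start windows. The GFP+ only share was 27.8% (12.5 to 50.9%), compared with 16.5% of the GFP+ list. At least 9 GFP- only peaks in the gene record were found in 1.24% of all protein-coding genes and in 5.34% of those of 50 kb or more. For at least 5 GFP+ only peaks, the number in *Etv6*, these shares were 0.735% and 3.06%. The highest-ranked GFP+ only peak in the *Etv6* flanks was at rank 54.3 (chr6:133984962-133985373). Shared *Etv6* peaks had a median difference of -0.906 points over 16 peaks. One of them, in an intron (chr6:134060619-134061230), had rank 18.8 in GFP- and 61.3 in GFP+.

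*Elf1* had 6 GFP- only peaks among 12 in its flanks (50%, 25.4 to 74.6%), the highest at rank 75.7 (chr14:79657884-79658797). The share was 30.3% in the whole GFP- list and 35.8% outside start windows, both within this interval. None of the 6 flanking GFP+ peaks of *Elf1* was GFP+ only. Its highest GFP- only peak in an intron had rank 60.3 (chr14:79518532-79519328), and its 3 GFP+ only peaks had ranks of 23.6 to 25.7. Of its 13 shared peaks 12 ranked lower in GFP+, with a median difference of -2.21 points, and of the 56278 shared GFP+ peaks of the whole list 37058 did (65.8%), with a median of -2.14. *Ets2*, the shortest gene with a start peak, had 5 peaks in its record in each list, and all were shared. Its flanks held a GFP- only peak at rank 53.5 (chr16:95814441-95815117) and a GFP+ only peak at rank 42.1 (chr16:95742627-95742972). The lists thus differed at *Ets2* in its flanks and not in its record.

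*Etv1* and *Etv2* had the fewest differences in number. All 4 GFP+ peaks of the *Etv1* locus were shared, and 3 of its 7 GFP- peaks were GFP- only, at ranks of 10.8 to 29.8. This GFP- only share was 42.9% (15.8 to 75%), compared with 30.3% of the whole GFP- list. An intronic *Etv1* peak (chr12:38788543-38788913) had rank 76.5 in GFP- and 19.2 in GFP+, and GFP- peaks covered 2549 bp of the gene record against 1362 bp for GFP+. The *Etv2* flanks, which hold 19 other protein-coding genes, had 19 GFP- and 21 GFP+ peaks, of which 0 and 1 were found in a single list. That GFP+ only peak, at rank 18.0, lay at a start of the neighbouring gene *Lin37* (chr7:30555251-30555912), 119 bp from a GFP- peak. The nearest peak upstream of *Etv2* was shared and lay at starts of *Rbm42*, at -14.4 kb from the *Etv2* start.

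Over all 9 loci, 125 GFP+ peaks were shared, and their median difference was -0.11 points. Of these, 22 ranked higher in GFP+ by over 20 points and 11 lower, whereas in the whole list 2797 were higher and 8372 lower by as much. The GFP+ only peaks of the members had a median rank of 31.1, compared with 17.4 for all GFP+ only peaks, and 14 of the 55 lay within 1000 bp of a GFP- peak. The GFP- only peaks had a median rank of 30.8, compared with 25.5, and 5 of the 38 lay within 1000 bp of a GFP+ peak.

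The sequence around the summits of peaks found in a single list was then searched for the 5 words. A word match describes the letters of the window and does not show that a factor bound there. The ETS word was in 3 of the 55 GFP+ only windows of the member loci (5.45%, 1.87 to 14.9%), compared with 5.93% of GFP+ only windows of the whole list outside start windows. The FOX:ETS word was in 2 (3.64%, 1.00 to 12.3%), compared with 5.54% in the same comparison. Both intervals include the share of the whole list. The GGAA core, counted after the values were seen, was in 53 of the 55 windows (96.4%) and in 94.3% of the comparison windows.

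The SOX word, a site of the group that includes the endothelial factors *Sox7*, *Sox17* and *Sox18*, was in 9 of the 55 GFP+ only windows (16.4%, 8.86 to 28.3%), compared with 6.04% of GFP+ only windows of the whole list outside start windows. The comparison leaves out all start windows. Of the 55 member peaks, however, 5 lay at starts of the members and others at starts of neighbouring genes. In all GFP+ only windows, starts included, the SOX share was 5.86%. The 9 SOX windows lay in *Erg* introns (3), a *Fli1* intron, the stretch between *Fli1* and *Ets1*, an *Ets1* intron, and flanks of *Ets2* (1) and *Elk3* (2). The peak between *Fli1* and *Ets1* lay at a start of *Gm47680*. In shared GFP+ peaks of the member loci the SOX word was in 8 of 125 windows (6.40%), compared with 2.72% of shared windows outside starts in the whole list. At the *Erg*, *Fli1* and *Elk3* loci, however, it was in 0 of 47 shared windows (0 to 7.56%). The GATA word was in 5 GFP+ only windows (9.09%, 3.95 to 19.6%), compared with 3.95%, and 3 of these lay at the internal start of *Erg* or in the intron next to it. In the upstream sequence of that start it appears as its reverse complement, and 2.74% of 32851 RefSeq promoters held it.

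The AP-1 word was in 9 of 38 (23.7%, 13.0 to 39.2%), compared with 15.0% of GFP- only windows of the whole list outside start windows, and in 4 of 55 GFP+ only windows (7.27%, 2.86 to 17.3%), compared with 8.91%. The 9 windows were in *Ets1* (3), *Etv6* (3), *Erg*, *Ets2* and *Elf1*. The ETS and the SOX word were each in 1 GFP- only window (2.63%), compared with 3.29% and 2.08% of the whole list outside start windows, and the GATA word in 0 (0 to 9.18%), compared with 3.42%. The FOX:ETS word was in 1 GFP- only window (2.63%), compared with 2.89%. At the ETS genes and in the whole lists, the AP-1 word had its larger share in GFP- only windows. The ETS, FOX:ETS, SOX and GATA words had theirs in GFP+ only windows. Every word searched thus kept, at the ETS genes, the direction it had between the whole lists. At the ETS genes the intervals of the GFP+ only and GFP- only shares overlapped for each word.

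**Figure D4:**
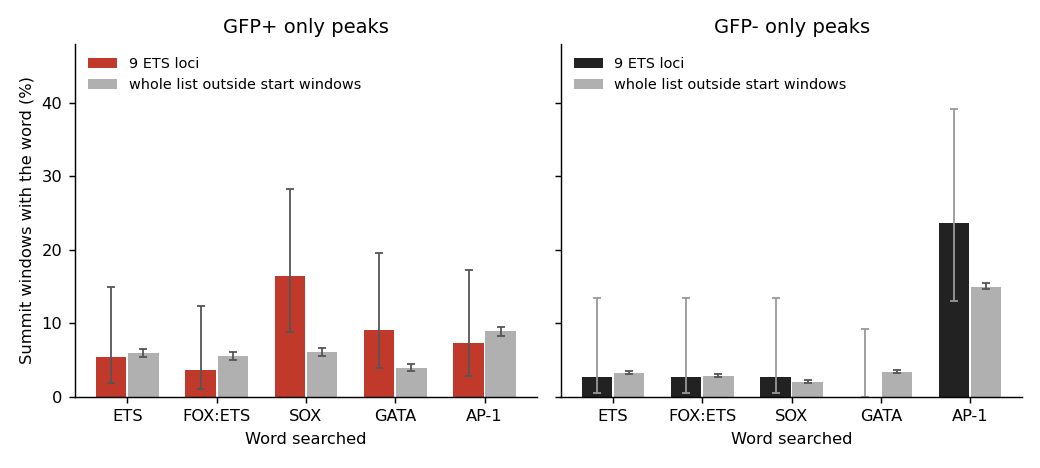
Share of 200 bp summit windows that hold each word (vertical axis, %) among GFP+ only peaks (left panel) and GFP- only peaks (right panel), at the 9 ETS loci (red or black) and in the whole list outside start windows (grey); bars carry Wilson 95% intervals. The SOX share of GFP+ only peaks is 16.4% at the ETS loci against 6.04%, and the AP-1 share of GFP- only peaks is 23.7% against 15.0%.

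The members were last set beside the rest of their family and beside other vascular regulators. Of 26 ETS family genes, 18 had a start peak in both lists, 1 in GFP+ only (*Erg*), 0 in GFP- only and 7 in neither. The 7 were *Etv2* and, among the 17 genes outside the members, *Fev*, *Ehf*, *Spdef*, *Spi1*, *Spib* and *Spic*, which are known for neuronal, epithelial or blood cell roles. Among the 17, *Elf3*, an epithelial ETS gene, was the 1 gene whose highest start rank differed by over 20 points, from 23.0 in GFP- to 60.4 in GFP+. Of all genes with start peaks in both lists, 5.41% differed by as much. The other differences in these genes ran from -10.1 points, at *Elf5*, to 0.0962 points, at *Elf2*.

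**Figure D5:**
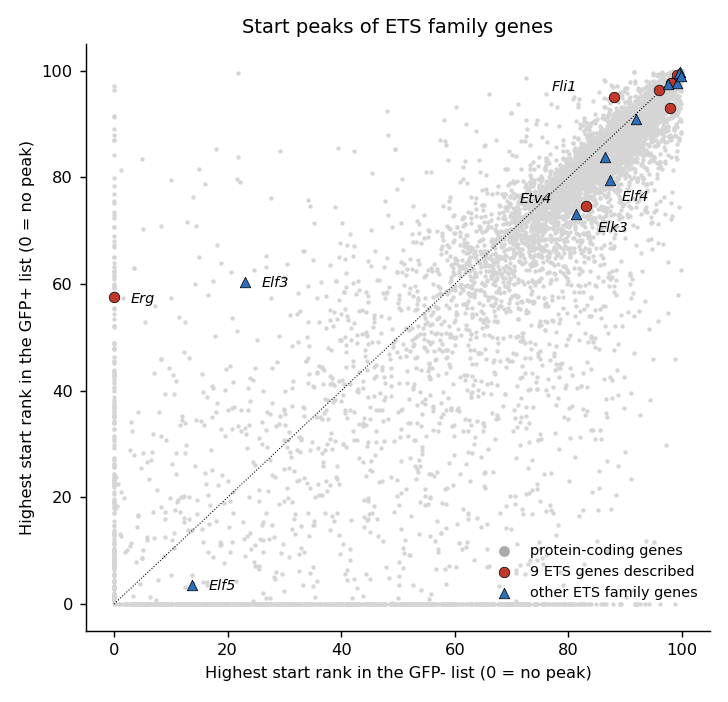
Highest start rank of each gene in the GFP- list (horizontal axis) and in the GFP+ list (vertical axis), both as percentiles with 0 for no peak; grey points are protein-coding genes with a start peak, red circles the 9 ETS genes described and blue triangles the other ETS family genes, and the dotted line marks equal rank. Erg (57.5) and Elf3 (60.4 against 23.0) stand above the line, and most other family genes lie near it in the upper right corner.

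Among 28 vascular regulators, the genes whose pair of highest start ranks lay nearest to each member were found by Euclidean distance over these 2 values. Nearest to *Fli1* was *Sox7* (88.7 in GFP-, 94.1 in GFP+, distance 1.17), followed by *Id1* and *Lmo2*. No regulator was close to *Erg*, and the nearest were *Sox18* (21.6 and 79.7, distance 31.0), *Sox17* (no peak and 91.3, distance 33.8) and *Tbx1*. *Ets1* lay nearest to *Sox4*, *Hey2* and *Foxc1*, and *Ets2* and *Etv6* both to *Hey1*, *Nr2f2* and *Hey2*. *Elk3* lay nearest to *Foxc2*, *Meox2* and *Prox1*, *Elf1* to *Epas1*, *Klf4* and *Foxo1*, and *Etv1* to *Nfatc1*, *Mef2c* and *Foxc1*. With only 2 lists, many genes share a pair of ranks near 100, so nearness at the top of the scale is common.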

How the data were processed

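ATAC-Seq was analysed from the peak lists of GFP+ and GFP- heart nuclei. Per the paper's methods and the labels, the authors aligned fastp-trimmed reads to mm10 (bowtie2), filtered them (samtools, Picard), brought the libraries to equal read numbers and ran Genrich on both replicates together. The deposited area is a signal summed over each peak, the deposited −log10 p-value belongs to its summit, and the deposited score is limited to 1000, which 83.9% of GFP- and 82.0% of GFP+ peaks reached. No peak had an area under 200. The lists hold no read counts, so the reads behind a peak are not given.

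Peaks were ranked by area within each list and joined to GENCODE M21 starts (+/- 250 bp), introns and 100 kb flanks, and words were searched in GRCm38.p6. Peaks were placed by their summit. The steps were tested on simulated data. Python 3.11.15, numpy 2.4.6, pandas 2.3.3 and matplotlib 3.10.9 were used. The members, gene lists and words were chosen with earlier results of these data known. The named peaks were, for each member, the highest-ranked at starts and the highest-ranked of a single list in the record and the flanks, and any others named were chosen after their values were seen. Among other family genes, those with start peaks in 1 list only or ranks over 20 points apart were named. The alternatives changed the start window, the transcripts used, the threshold on peaks, the ranking, the overlap required, the flanks and the list length.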

Additional observations from a re-analysis of the deposited data

How the results depend on the processing

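No paired analysis was possible because each list was called from both replicates together, and for the same reason no replicate could be left out. Of 50 values recomputed under alternative settings, 44 were within the tolerance used, which was 1.5 times for a count and the Wilson interval of the reported value for a share. With an overlap of 50% of both peaks required, the share of GFP+ peaks at the ETS loci without a GFP- partner was 42.8% (reported: 30.6%) and that of GFP- peaks without a GFP+ partner was 36.8% (reported: 23.3%), and these rise because fewer pairs can count as shared. Within the gene records alone the GFP+ share was 38.4%. With lists of equal length, 7 members in place of 4 had more GFP+ only than GFP- only peaks, with *Ets1*, *Ets2* and *Etv6* added, since 13904 GFP- peaks of low area were left out. With a summit −log10 p of at least 5 required in both lists, 2 family genes in place of 1 had a start peak in GFP+ only, *Erg* and *Elf3*, since the GFP- peak of *Elf3* was left out. With lists of equal length, a setting added for this count after seeing the data, the 2 genes were *Erg* and *Elf5*. *Erg* was among them in all 5 alternatives run for this count. With the summit threshold of 5 the GFP+ only starts of *Ets1* and *Elk3* were no longer listed, while a start of *Fli1* became GFP+ only. The GFP+ only starts then numbered 2, in *Erg* and *Fli1*. With windows of +/- 1000 bp, 14 starts had a GFP+ peak and 12 a GFP- peak. The number of members with a higher start rank in GFP+ stayed at 3 by area per bp, with *Etv6* in place of *Ets1*. Ranking by the summit −log10 p gave 4 members with a higher start rank in GFP+, with *Elf1* (94.4 and 95.3) added. A single list per population allows no estimate of the spread between animals. No peak is listed below an area of 200 and the lists hold no read counts, so a peak missing from a list does not show the absence of reads.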
